A study of Homo sapiens with 6 samples.

Results

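EGFR, KDR, SPRY2 and SPRY4 were followed in U-87 MG cells, a long-established line from a human glioblastoma, after exposure to electromagnetic fields. They were taken by gene symbol, each is carried by 1 probe set of the array (4 of 53617 probe sets, and 4 of the 14884 genes that the platform annotation names), and they were selected on their log2 values in this comparison, which were already known to be lower after exposure. Their differences between the groups are therefore given as a description and support nothing.

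Total RNA was measured on 1-colour Affymetrix arrays, 3 of exposed and 3 of unexposed cells, each labelled as an independent biological replicate. From 24 h after seeding, exposed dishes stood for 54 h without a break under electromagnetic fields, in a culture box inside a Faraday chamber. The submitters describe the fields (RGFIELDS™) as directed at hsa-miRNA-381, the chaperone HSP70, the glycoprotein CHI3L1 and the alpha-kinase 2 gene in a mutated form. Whether the fields act on these targets was not tested. Unexposed dishes of the same line, in the same serum-containing medium, stood in a control box outside the chamber, so that effects of the field and of the box cannot be told apart here. Values are log2 expression from RMA, a method that removes background, makes the arrays' distributions alike and summarises each probe set's probes. Array medians were 3.96 to 3.99, and arrays correlated at 0.987 to 0.988 within the exposed group, 0.985 to 0.986 within the unexposed group and 0.982 to 0.987 between groups. Of 8 listed markers of mesenchymal glioma, which do not by themselves identify the line, 6 were measured, that is, had a named probe set. Their mean level was 9.65 to 9.67 on unexposed and 9.56 to 9.67 on exposed arrays. The dimmest of them was NES, with a mean of 6.83 over all arrays, and CHI3L1 is also among the described targets of the fields.

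EGFR is the receptor tyrosine kinase of epidermal growth factor and its relatives, and is a frequent driver of glioblastoma. KDR, also called VEGFR2, is the main signalling receptor of vascular endothelial growth factor and is best known from endothelial cells. EGFR activates RAS, and both receptors activate the kinases RAF, MEK and ERK. ERK activity induces Sprouty genes such as SPRY2 and SPRY4, whose proteins dampen the same cascade. SPRY2 also binds CBL, the ubiquitin ligase that sends active EGFR to degradation.

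The regions around the transcription starts of the 4 genes are shown as a description, and their part in the array values was not tested. They hold 250 bases before and 50 bases after the start (RefSeq, build GRCh38.p14), 5′ to 3′ on the strand of the gene. Where the table used lists several starts, the first in the direction of transcription is printed. For SPRY4 it lists 1 start, which lies 774 bases inside the gene, counted from the gene's 5′ end. Capitals mark matches on either strand to any of 5 short motifs searched: the GC box GGGCGG, the ETS core CCGGAA, the AP-1 motif TGACTCA, the cyclic AMP element TGACGTCA and the E-box CACGTG. No match overlapped another in these windows.
EGFR, chr7:55018767-55019066, plus strand: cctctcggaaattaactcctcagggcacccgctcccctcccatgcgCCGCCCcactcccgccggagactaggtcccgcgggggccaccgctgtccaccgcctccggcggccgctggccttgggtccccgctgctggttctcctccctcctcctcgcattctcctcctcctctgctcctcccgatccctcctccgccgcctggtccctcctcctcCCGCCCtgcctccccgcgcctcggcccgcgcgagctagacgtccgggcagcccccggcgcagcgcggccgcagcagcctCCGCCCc
KDR, chr4:55125546-55125845, minus strand: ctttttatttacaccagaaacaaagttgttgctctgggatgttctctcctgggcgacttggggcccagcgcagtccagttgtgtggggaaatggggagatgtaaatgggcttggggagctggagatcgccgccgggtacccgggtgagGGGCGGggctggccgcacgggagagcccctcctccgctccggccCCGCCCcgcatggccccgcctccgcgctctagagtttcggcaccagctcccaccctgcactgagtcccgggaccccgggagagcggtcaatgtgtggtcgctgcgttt
SPRY2, chr13:80341077-80341376, minus strand: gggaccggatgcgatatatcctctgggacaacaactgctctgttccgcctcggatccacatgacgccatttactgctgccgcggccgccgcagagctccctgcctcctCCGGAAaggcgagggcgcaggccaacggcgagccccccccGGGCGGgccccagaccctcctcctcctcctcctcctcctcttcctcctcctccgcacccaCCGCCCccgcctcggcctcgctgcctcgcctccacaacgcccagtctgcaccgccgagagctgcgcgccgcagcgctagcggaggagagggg
SPRY4, chr5:142324198-142324497, minus strand: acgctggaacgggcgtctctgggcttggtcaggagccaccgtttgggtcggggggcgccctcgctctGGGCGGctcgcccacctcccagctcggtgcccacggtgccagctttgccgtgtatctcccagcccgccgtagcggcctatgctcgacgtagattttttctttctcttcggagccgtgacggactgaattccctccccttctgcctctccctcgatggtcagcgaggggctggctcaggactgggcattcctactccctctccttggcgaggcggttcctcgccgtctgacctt

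All 4 windows held the GC box, which 45.0% of the 35116 RefSeq windows of this length hold. EGFR had 3 matches, KDR 2, SPRY2 2 and SPRY4 1. Counted with the first transcribed base as 1 and the base before it as -1, the matches began at -204, -36 and 44 in EGFR, at -102 and -58 in KDR, at -102 and -42 in SPRY2 and at -183 in SPRY4. SPRY2 had the ETS core once, at -142, and 17.2% of all windows have it. The AP-1 motif (4.95% of windows), the cyclic AMP element (1.85%) and the E-box (7.26%) had no match in the printed windows. GC content was 75.3% for EGFR, 71.0% for SPRY2 and 65.0% for both KDR and SPRY4, against a median of 58.7% over all windows. The motif shares given are over windows of any GC content and were not matched for it. A second RefSeq start of EGFR, inside the gene at chr7:55109589-55109888, had a GC content of 42.0%, no GC box and 2 AP-1 matches, at -232 and -136. SPRY2 has 2 further starts downstream: the window at chr13:80340059-80340358 held none of the 5 motifs, and the one at chr13:80339610-80339909 held 1 GC box. The array has 1 probe set for each of these genes and does not tell transcripts of different starts apart. A match to such letters is a description of the sequence and shows no binding.

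All 4 genes were lower in exposed cells, by 18.8% for EGFR, 25.5% for KDR, 29.0% for SPRY2 and 29.3% for SPRY4 on the linear scale. The lowest unexposed array lay above the highest exposed array for each gene. Among all 14884 genes, 27.0% had groups that did not overlap, 13.8% with the exposed group below. In bulk RNA, fewer cells that express a gene and less of its RNA per cell cannot be told apart.

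**Figure D1:**
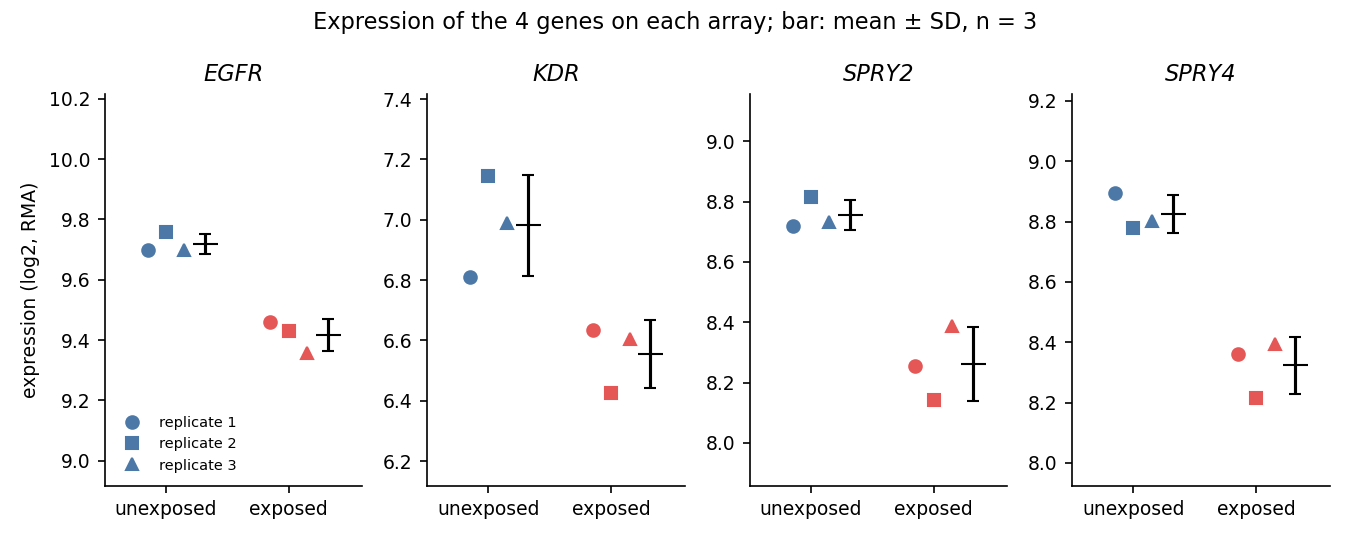
Log2 expression (RMA) of EGFR, KDR, SPRY2 and SPRY4 on each of the 6 arrays, with symbols for the replicates and bars for mean ± SD (n = 3). Every axis spans the same log2 range, and each gene's exposed points lie below its unexposed points, with a gap of 0.18 for KDR and 0.39 for SPRY4.

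EGFR (probe set 17046135, gene at chr7:55019017-55211628) had log2 values of 9.70, 9.76 and 9.70 on unexposed replicates 1, 2 and 3. On exposed replicates 1, 2 and 3 it stood at 9.46, 9.43 and 9.36. The unexposed arrays lay within a narrow band and the exposed arrays lay below it by at least 0.24. The means were 9.72 ± 0.03 in unexposed and 9.42 ± 0.05 in exposed cells (SD, n = 3 each), and the log2 change was -0.30 (SE 0.05). EGFR thus had the smallest change and the tightest replicates of the 4 genes. An antisense transcript of the locus, EGFR-AS1 (probe set 17057894), was dim, at 3.27 to 3.61 on unexposed and 3.06 to 3.37 on exposed arrays. Its groups overlapped, and its log2 change of -0.23 had an interval of -0.62 to 0.15. EGFR-AS1 was named after its values were seen, and whether its probes are free of signal from the opposite strand is not given in the sources used here.

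KDR (probe set 16976029, gene at chr4:55078481-55125595) was at 6.81, 7.15 and 6.99 on unexposed replicates 1, 2 and 3. It was at 6.63, 6.43 and 6.61 on exposed replicates 1, 2 and 3. Unexposed replicate 1 was the low and unexposed replicate 2 the high end of a wide group, and the distance from unexposed replicate 1 to the nearest exposed array was 0.18. The means were 6.98 ± 0.17 and 6.56 ± 0.11 (SD, n = 3 each), and the log2 change was -0.43 (SE 0.11). KDR had the largest SE of the 4 genes. Its change was -0.34 without unexposed replicate 2 and -0.51 without unexposed replicate 1.

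KDR marks endothelial cells in tissue, so other endothelial genes were read beside it. Of 11 listed endothelial markers 7 were measured, and CDH5, TEK, EGFL7 and ROBO4 had no named probe set here. None of the 7 passed limma's adjusted threshold of 0.05 or had an unadjusted p under 0.05, and the groups overlapped for each. The adhesion molecule PECAM1 ranged from 2.78 to 3.39 over the 6 arrays, the mucin-like EMCN from 2.15 to 2.41, the receptor TIE1 from 3.35 to 3.54 and the clotting factor carrier VWF from 3.47 to 3.93. The junction protein ESAM lay at 3.81 to 4.33 and the transcription factor ERG at 4.21 to 4.77, while the tight junction protein CLDN5, the brightest, lay at 5.15 to 5.76. Averaged over the list, levels were 3.70 to 3.81 on unexposed and 3.75 to 3.88 on exposed arrays, below the array medians. The array values have no true zero, so dim probe sets are not shown to be without signal.

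SPRY2 (probe set 16780069, gene at chr13:80335976-80341126) was at 8.72, 8.81 and 8.73 on unexposed replicates 1, 2 and 3. On exposed replicates 1, 2 and 3 it was at 8.26, 8.14 and 8.39. The unexposed arrays lay close together and the exposed arrays were more spread, with exposed replicate 2 lowest. The means were 8.76 ± 0.05 and 8.26 ± 0.12 (SD, n = 3 each), and the log2 change was -0.49 (SE 0.08). With single arrays left out, the change lay between -0.56 (without exposed replicate 3) and -0.43 (without exposed replicate 2).

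SPRY4 (probe set 17001063, gene at chr5:142310430-142325021) was at 8.90, 8.78 and 8.80 on unexposed replicates 1, 2 and 3. It was at 8.36, 8.22 and 8.39 on exposed replicates 1, 2 and 3. Here too exposed replicate 2 was lowest, and unexposed replicate 1 was highest. The means were 8.83 ± 0.06 and 8.32 ± 0.09 (SD, n = 3 each), and the log2 change was -0.50 (SE 0.07). The distance between the groups was the widest of the 4 genes, at 0.39. The changes of SPRY2 and SPRY4 differed by less than the SE of either.

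In the fit over all genes, which called 1.67% of them lower by limma's adjusted threshold, EGFR, SPRY2 and SPRY4 were past it and KDR was not (3 of 4). This comparison chose the genes, so the count is no test of them and nothing is read from it. The count was 2 without exposed replicate 3 (SPRY2 and SPRY4) and 0 without any other array. It was also 2 (SPRY2 and SPRY4) on a scale set by ribosomal protein genes, where EGFR did not pass. The replicate number as a block brought the count to 0, as did both other variance models (unmoderated, or moderated without a trend). The log2 changes kept their sign for all 4 genes under each of the 14 alternatives run. With groups that did not overlap, leaving out a single array could not change it. The variance models, the block, the filter on dim probe sets and the averaging of probe sets leave these estimates as they are. Only the other scalings could have changed a sign.

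**Figure D2:**
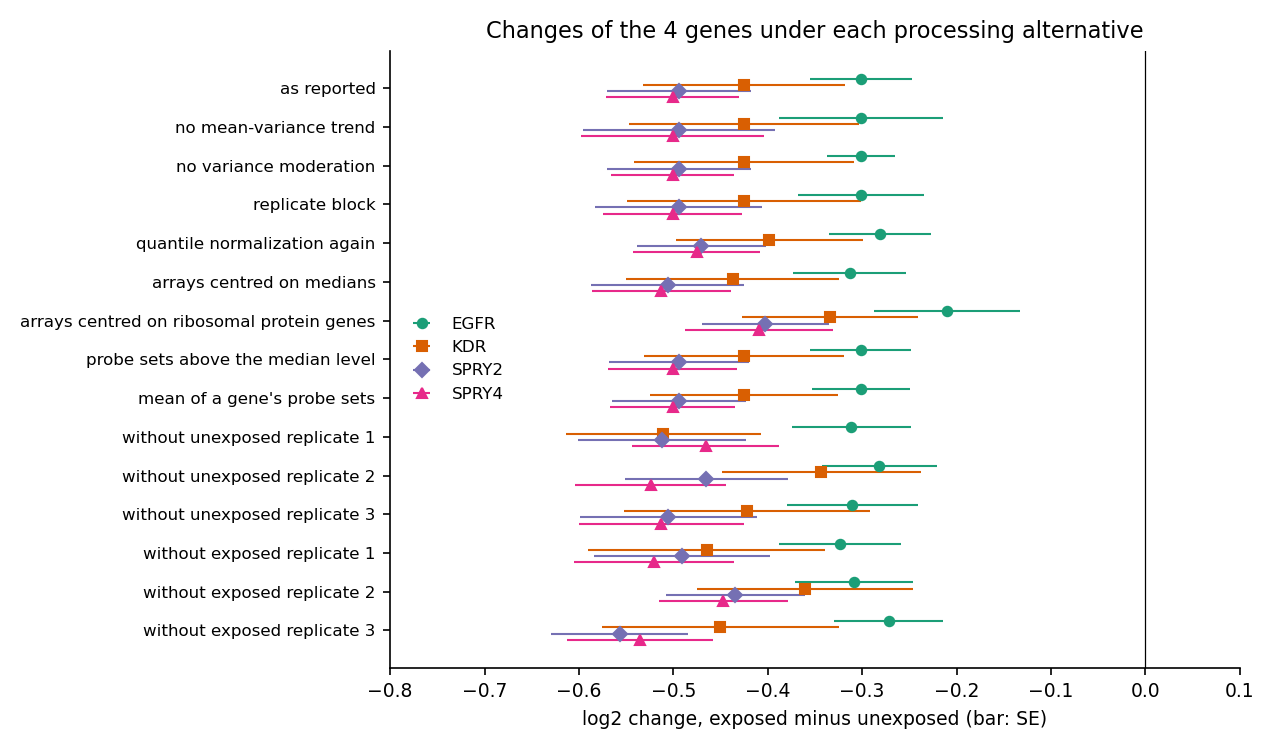
Log2 change (exposed minus unexposed) of EGFR, KDR, SPRY2 and SPRY4 as reported and under 14 processing alternatives, with bars for the SE. Every point lies below 0, EGFR is nearest to 0 in each setting, and the value nearest to 0 is -0.21, for EGFR on a scale set by ribosomal protein genes.

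Across the 6 arrays the 4 genes varied together, with Pearson's r of 0.85 (KDR and SPRY4) to 0.97 (SPRY2 and SPRY4) over the 6 pairs and Spearman's rho of 0.60 to 0.94. The arrays form 2 separate groups for each of these genes, so these values mostly restate the difference between groups and carry no p-value. The other 245 genes called lower correlated with the 4 genes about as closely, with a median r of 0.92 with EGFR, 0.93 with KDR, 0.97 with SPRY2 and 0.94 with SPRY4. Within groups the picture was mixed. Over deviations from the group means, r was 0.69 for KDR and SPRY2, 0.55 for SPRY2 and SPRY4, 0.34 for EGFR and KDR and 0.01 for KDR and SPRY4. It was -0.35 for EGFR and SPRY2 and -0.47 for EGFR and SPRY4. These deviations rest on 6 arrays and share the arrays' normalization, so they describe these arrays alone. Exposed replicate 2 was low for KDR, SPRY2 and SPRY4, by 0.13, 0.12 and 0.11 below the group mean, but not for EGFR, which was 0.01 above it.

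**Figure D3:**
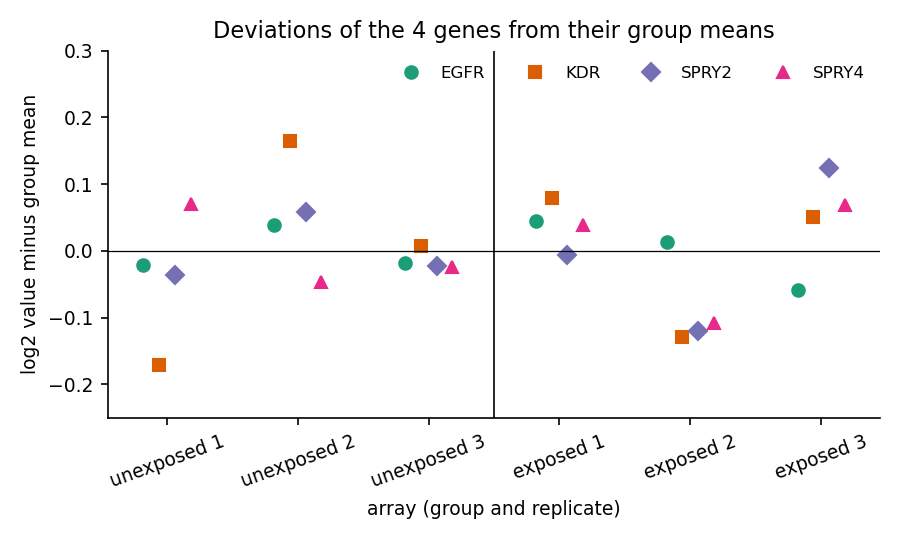
Log2 value minus the mean of its group for EGFR, KDR, SPRY2 and SPRY4 on each of the 6 arrays. KDR has the largest deviations, at -0.17 and 0.16 on unexposed replicates 1 and 2, and on exposed replicate 2 the other three genes lie below 0 while EGFR lies at 0.01.

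For each of the 4 genes, the 3 genes most like it by Pearson's r over the 6 arrays were taken from 9220 ranked. These were brighter than the median probe set. Left out were LOC, LINC, FLJ, KIAA, MIR, SNOR, RNU, RP clone, antisense and open reading frame names and numbered FAM, TMEM and ZNF names. EGFR was closest to MED13, a part of the Mediator kinase module (r = 0.997, log2 change -0.20), to the noncoding RPSAP52 (r = 0.997, -0.67) and to the RNA-binding EWSR1 (r = 0.995, -0.30). KDR was closest to the transcription factor GMEB1 (-0.23), the cyclin CCNE2 (-0.76) and the nucleolar methyltransferase FBL (-0.29). SPRY2 was closest to the pocket protein RBL1 (-0.44), the keratin-associated KRTAP1-5 (-1.14) and the mitotic kinesin KIF2C (-0.69). SPRY4 was closest to the protease ESPL1, or separase (-0.51), the transcription factor SP1 (-0.14) and the RNA-binding DAZAP1 (-0.34). All 12 had r of 0.994 to 0.999 over 6 arrays, and lower means in exposed cells. With so few arrays, many genes that separate the groups reach such values.

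The other genes of the pathway were read from 9 lists, of which 104 of 154 entries were measured. Of these 104, 3 rose and 4 fell in exposed cells (6.73%, beside 3.06% of all genes called, 1.40% higher and 1.67% lower), and 97 did not pass. The lists were chosen with earlier results of these data known, so these counts are no test of them. The listed genes and all genes were also not matched by level. The median log2 change was -0.00493 over the 104 and 0.00288 over all genes, with 54 negative values. All calls in the lists come from limma with Benjamini-Hochberg adjustment over all 14884 genes.

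**Figure D4:**
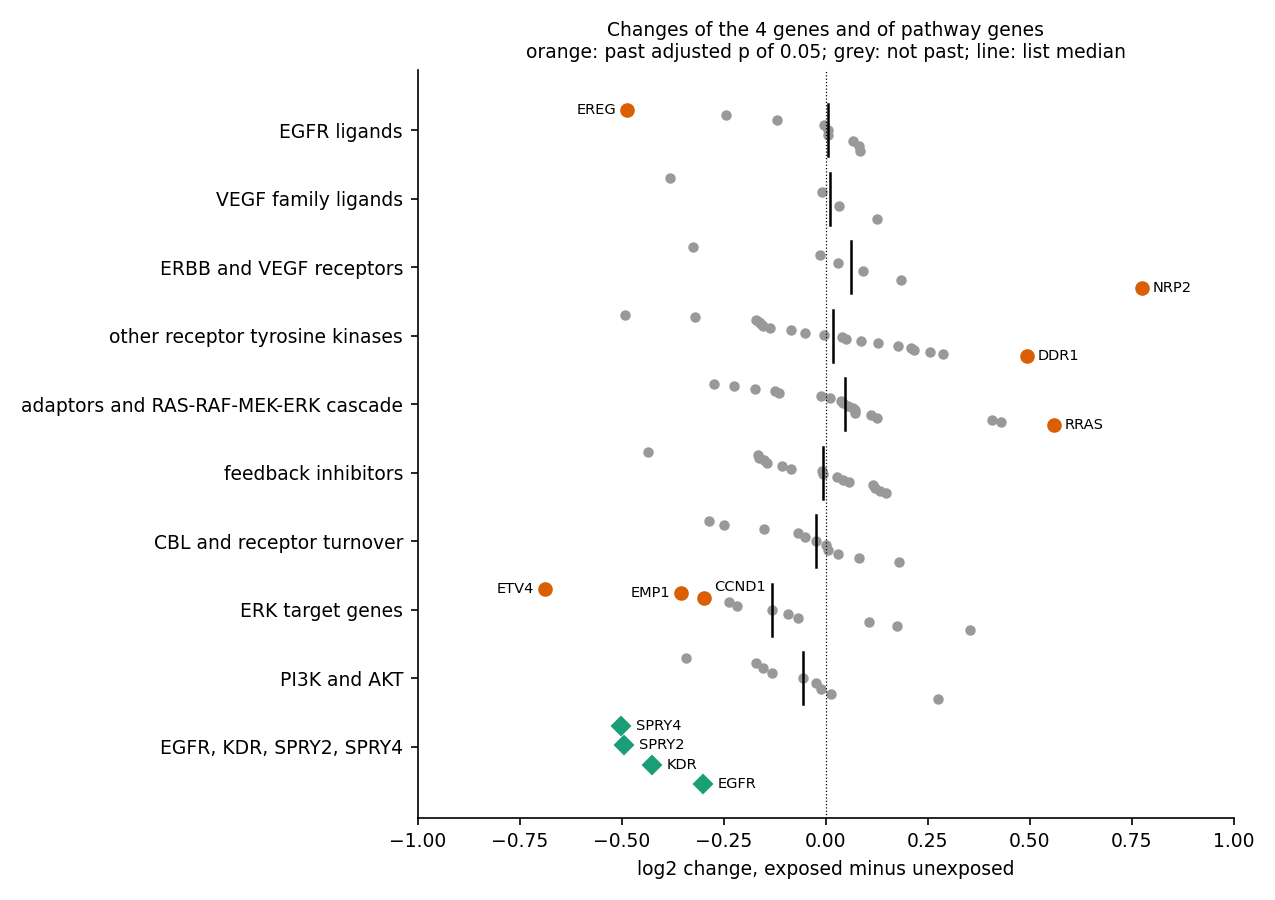
Log2 change (exposed minus unexposed) of each measured gene in 9 pathway lists and of the 4 genes described (diamonds). Orange points passed the adjusted threshold, grey points did not, and black lines are list medians. The 7 named orange points run from -0.69 (ETV4) to 0.78 (NRP2), while the medians of the lists lie between -0.13 and 0.06.

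Among the ligands, EREG (epiregulin, a ligand of EGFR) fell and the other 8 measured EGFR-family ligands did not pass. EREG was at 11.03, 11.05 and 11.10 on unexposed replicates 1, 2 and 3 and at 10.44, 10.52 and 10.76 on exposed replicates 1, 2 and 3. The exposed arrays all lay below the unexposed ones, with exposed replicate 3 nearest to them. Its log2 change was -0.49 (SE 0.08, limma adjusted p = 0.0324). HBEGF, another ligand of EGFR, had a change of -0.24 (limma adjusted p = 0.180) with groups that did not overlap. BTC and NRG2 both had a change of 0.08, and a second, dimmer probe set of NRG2 had one of 0.33 (SE 0.14). TGFA and AREG had no named probe set here. None of the 4 measured ligands of the VEGF family passed by limma, and 1 (PGF) had an unadjusted p under 0.05. VEGFA, the main ligand of KDR, was at 8.53 to 8.72 on unexposed and 8.60 to 8.72 on exposed arrays, a change of 0.03 (95% interval -0.13 to 0.20). PGF was at a change of -0.38 (limma adjusted p = 0.103), VEGFC one of 0.13 and VEGFB one of -0.01.

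Of the 6 measured partners of the receptors, NRP2 rose and the others did not pass. NRP2, a co-receptor of VEGF receptors and of semaphorin signalling, was at 7.89, 7.64 and 7.70 on unexposed replicates 1, 2 and 3. It was at 8.60, 8.66 and 8.30 on exposed replicates 1, 2 and 3. Every exposed array was higher, with a log2 change of 0.78 (SE 0.11, limma adjusted p = 0.0298), opposite in sign to KDR. Its relative NRP1 had a change of 0.19 (limma adjusted p = 0.136) without overlap of the groups. FLT4, the receptor of VEGFC, was dim and had a change of -0.32 (limma adjusted p = 0.245). The EGFR partners ERBB4 and ERBB3 had changes of 0.03 and -0.01, and ERBB2 had no named probe set here.

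Of 20 measured receptor tyrosine kinases of other families, DDR1 rose and 19 did not pass, with a list median of 0.02. DDR1, a collagen receptor, was at 7.01, 6.96 and 7.03 on unexposed replicates 1, 2 and 3 and at 7.46, 7.57 and 7.45 on exposed replicates 1, 2 and 3. The groups lay apart, with a log2 change of 0.49 (SE 0.07, limma adjusted p = 0.0298). Its 4 probe sets had changes of 0.48 to 0.49, and 2 of them hold the same values. DDR2, the other collagen receptor, had a change of 0.21, AXL one of -0.16 and KIT one of -0.49, and these did not pass (limma adjusted p of 0.119, 0.147 and 0.205). Without unexposed replicate 2, the highest array for KIT at 6.49, the change of KIT was -0.28.

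In the cascade below the receptors, RRAS rose and the other 17 of 18 measured genes did not pass. RRAS, a small GTPase related to RAS, was at 9.98, 9.87 and 9.98 on unexposed replicates 1, 2 and 3 and at 10.56, 10.58 and 10.37 on exposed replicates 1, 2 and 3. The groups lay apart on all arrays, with a log2 change of 0.56 (SE 0.07, limma adjusted p = 0.0286). MAP2K2, one of the MEK kinases, had a change of 0.41, GAB2 one of -0.27 and HRAS one of -0.23 (limma adjusted p of 0.143, 0.284 and 0.208).

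Of 16 other measured feedback inhibitors of the cascade, 0 passed by limma, and RASA2 and NF1 had an unadjusted p under 0.05. The list had a median of -0.00718 and 9 negative values. SPRY3, the remaining Sprouty gene measured, was at 6.21, 5.95 and 5.82 on unexposed replicates 1, 2 and 3 and at 6.08, 6.24 and 6.10 on exposed replicates 1, 2 and 3. Its groups overlapped, with a change of 0.15 (95% interval -0.13 to 0.42), and its second probe set was at 0.26. SPRY1 and the SPRED genes have no named probe set here. The ERK phosphatases, named after their values were seen, had changes of 0.04 (DUSP4), 0.06 (DUSP5), 0.03 (DUSP6), -0.14 (DUSP7) and 0.12 (DUSP9). The 95% interval of each held 0, the one nearest to leaving it out being that of DUSP7, at -0.35 to 0.06, and DUSP4, DUSP5 and DUSP6 changed sign when single arrays were left out. ERRFI1, an inhibitor of EGFR itself, had a change of 0.13. RASA2 and NF1, which switch RAS off, had changes of -0.43 and -0.17 (limma adjusted p of 0.0660 and 0.202).

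None of the 11 measured genes of CBL and receptor turnover passed by limma, and 4 had an unadjusted p under 0.05. USP8, a deubiquitinase that acts on endosomal EGFR, was at -0.29 (limma adjusted p = 0.0599) and HGS, an endosomal sorting protein, one of -0.25 (limma adjusted p = 0.103). STAM2, which pairs with HGS, was at 0.18 and SH3KBP1, which binds CBL, at 0.08. CBL and CBLB had no named probe set here.

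Among 11 measured genes known to be induced through ERK, 3 fell (27.3%, beside 1.67% of all genes) and 8 did not pass, with a list median of -0.13. This list too was chosen with earlier results of these data known, so the count is no test of it. The phosphatase genes DUSP4, DUSP5 and DUSP6 (0.04, 0.06 and 0.03) were counted among the feedback inhibitors and not here. ETV4, an ETS transcription factor, was at 7.52, 7.67 and 7.53 on unexposed replicates 1, 2 and 3 and at 6.84, 6.69 and 7.11 on exposed replicates 1, 2 and 3. All exposed arrays were lower, exposed replicate 2 most and exposed replicate 3 least, with a log2 change of -0.69 (SE 0.11, limma adjusted p = 0.0320). CCND1, the cyclin that drives the G1 phase, had means of 10.45 ± 0.04 in unexposed and 10.15 ± 0.01 in exposed cells (SD, n = 3 each) and a change of -0.30 (SE 0.05, limma adjusted p = 0.0312). The membrane protein EMP1 changed by -0.36 (SE 0.06, limma adjusted p = 0.0356). IER3 and MYC had positive values of 0.35 and 0.18 that did not pass (limma adjusted p of 0.164 and 0.433). On a scale set by ribosomal protein genes, 1 gene of this list fell (ETV4). Of 9 measured genes of PI3K and AKT signalling 0 passed by limma and 2 had an unadjusted p under 0.05: PHLPP2, a phosphatase of AKT, at -0.34 and TSC1 at 0.27. TSC2 was at -0.17 and RHEB at 0.01.

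**Figure D5:**
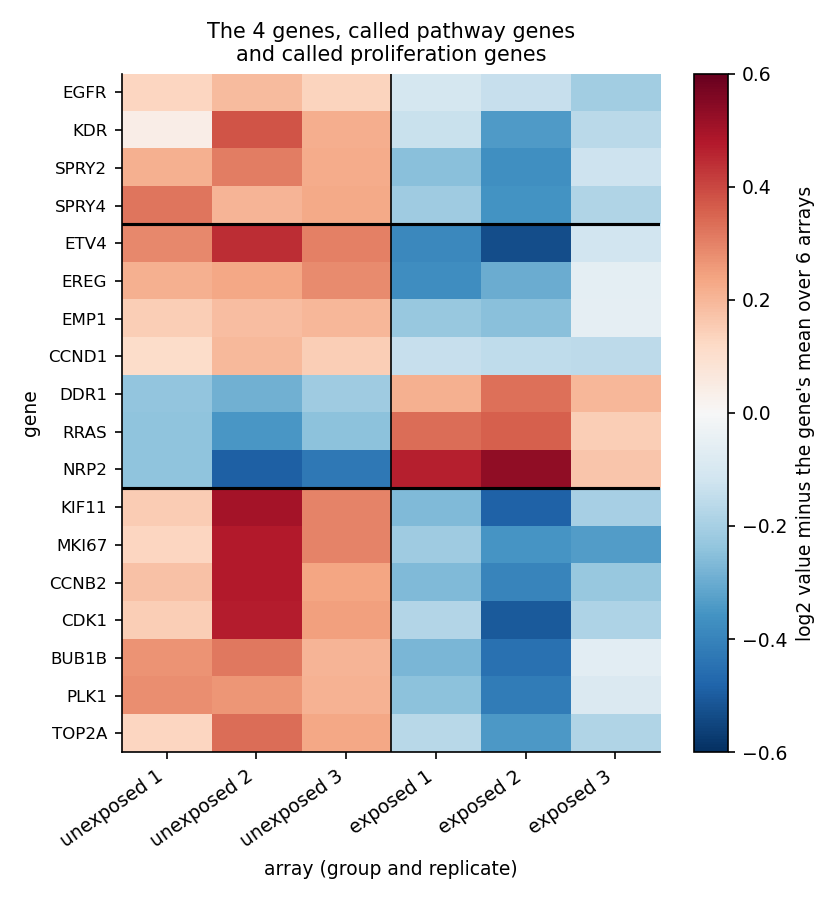
Log2 value minus the gene's mean over the 6 arrays, for EGFR, KDR, SPRY2 and SPRY4 (top block), the 7 pathway genes past the adjusted threshold (middle block) and the 7 proliferation genes past it (bottom block). Blue is below and red above the gene's mean. The 4 genes are red on the unexposed and blue on the exposed arrays, as are ETV4, EREG, EMP1, CCND1 and the proliferation genes, while DDR1, RRAS and NRP2 show the reverse.

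The calls of these 7 genes depended on single arrays. None of them remained when replicate 1 or 2 of the exposed group, or replicate 2 or 3 of the unexposed group, was left out, settings in which no gene of the array was called, although 2065 to 2287 genes had an unadjusted p under 0.05. NRP2 and RRAS remained without unexposed replicate 1, and all but CCND1 remained without exposed replicate 3. Of the 7 proliferation genes described next, MKI67 remained without unexposed replicate 1, all but CDK1 remained without exposed replicate 3, and none remained without any other array.

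Proliferation genes were also lower in exposed cells. Of 13 listed proliferation markers 11 were measured, 7 fell (63.6%, beside 1.67% of all genes) and all 11 had negative values, with a median of -0.50. Of all 14884 genes, 7341 had negative values. The list was chosen with earlier results of these data known, so the count is no test of it. Their mean level was 9.17 to 9.38 on unexposed and 8.63 to 8.89 on exposed arrays. MKI67, which marks dividing cells, changed by -0.60 (SE 0.09) and the mitotic cyclin CCNB2 by -0.59 (SE 0.09), with limma adjusted p of 0.0298 and 0.0312. The part of this difference in the values of EGFR, KDR, SPRY2 and SPRY4 was not tested. Of the markers of other cell types, LUM, a matrix proteoglycan of fibroblasts, rose (0.83, 1 of 4 measured pericyte and fibroblast markers), a call that was lost with any array but exposed replicate 3 left out. That list had a mean level of 5.35 to 5.45 on unexposed and 5.52 to 5.66 on exposed arrays. None of 4 myeloid, 4 astroglial and 5 oligodendroglial markers measured passed by limma, and S100B (-0.42) and GFAP (0.35) had an unadjusted p under 0.05. The myeloid list, which holds the widely expressed CD68, had a mean level of 6.19 to 6.41 on unexposed and 6.50 to 6.56 on exposed arrays, and its part in the results was not tested.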

How the data were processed

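The authors deposited log2 values, 1 for each probe set on each array, made by RMA in Affymetrix Expression Console 3.0 and Transcriptome Analysis Console 3.0, per the submitters' processing notes. Other settings are not stated in the labels used here. RMA hides any change in total RNA per cell. Groups and replicate numbers were taken from the titles. The description of the exposed samples calls them both exposed and control.

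Differences were fitted over all 53617 probe sets with limma 3.58.1 in R 4.3.3 (two-sided, no covariates, eBayes with trend). Of these probe sets 16098 carry 1 symbol, 0 carry several and 37519 are unnamed here. Listed genes count as measured where a probe set carries their symbol, and the others may be among the unnamed probe sets. A gene was represented by its probe set with the highest mean, and p-values were adjusted by Benjamini-Hochberg over 14884 genes, with a threshold of 0.05. All 14884 symbols stand in the RefSeq table of GRCh38.p14, which gave coordinates for the genes and sequence windows. The array annotation names no build. Figures were drawn with matplotlib 3.10.9.

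The 4 genes and the lists were chosen with earlier results of these data known. Besides these genes, the text names in each pathway list every gene past the threshold and the 2 with the smallest p in each direction, the 2 proliferation genes with the smallest p, each measured endothelial marker and the 3 genes most like each of the 4. Other names were added after their values were seen. Errors are SE from the fit, or SD. The number of arrays limits precision.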

Additional observations from a re-analysis of the deposited data

How the results depend on the processing

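The alternatives were the replicate number as a block, other variance models, other scalings, a filter on dim probe sets, averaging the probe sets of a gene and leaving out each array. With single arrays left out, the log2 change ranged from -0.32 to -0.27 for EGFR, -0.51 to -0.34 for KDR, -0.56 to -0.43 for SPRY2 and -0.54 to -0.45 for SPRY4. The number of the 4 genes past the threshold ranged from 0 to 2, of pathway genes from 0 to 3 higher and 0 to 3 lower, and of all genes from 0 to 142 higher and 0 to 183 lower. With ribosomal protein genes as the scale, EGFR was at -0.21 and SPRY4 at -0.41, 2 pathway genes fell and 115 of all genes fell, with the median of all genes at 0.0944. With the replicate block, which changed all calls, 0 of the 4 genes, 0 pathway genes and 0 genes of the array passed, while 2286 had an unadjusted p under 0.05. The labels link same-numbered arrays by nothing but the number, and a shared batch was not tested. Deviations of same-numbered arrays from the group means correlated at -0.0164, -0.0253 and 0.00964. Unexposed replicate 1 correlated best with exposed replicate 2 (0.0350). Without a mean-variance trend the counts were likewise 0, with 2220 at an unadjusted p under 0.05. Without variance moderation 4 genes were higher and 0 lower, with 0 of the 4 genes and 0 pathway genes, and 2649 at an unadjusted p under 0.05. Over probe sets above the median level, 321 genes were higher and 432 lower. With averaged probe sets, 512 were higher and 661 lower, among them 10 pathway genes that fell and all 4 genes described. These differences among variance models and gene summaries were not traced further, and the cause was not tested.

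Values near 0 changed sign in some settings, none of them past the threshold. With single arrays left out, CLDN5 ranged from -0.149 to 0.157, DUSP4 from -0.0245 to 0.0889, DUSP5 from -0.0569 to 0.159, DUSP6 from -0.0275 to 0.109, ERBB3 from -0.0570 to 0.0550, ERBB4 from -0.0408 to 0.0890, ESAM from -0.0315 to 0.194, NRG2 from -0.0122 to 0.155, RHEB from -0.101 to 0.0883, VEGFA from -0.00914 to 0.0865 and VEGFB from -0.0917 to 0.0859. With ribosomal protein genes as the scale ERBB3 was at 0.0776 and VEGFB at 0.0818, and after a second quantile normalization VEGFB was at 0.0246.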
